A study of Mus musculus with 2 samples.

Results

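Cytochrome P450 family 2, the Cyp2 genes, was measured in the liver of Rcrin conditional knockout and WT mice. Its members were taken as the protein-coding genes of GENCODE M21 whose symbol is Cyp2, a subfamily letter and a number, and 48 of the 55421 genes in both count tables met this. A member was compared between the genotypes if it averaged at least 50 counts in the pair of libraries, which held for 34 members. Cyp2s1 lay just inside that limit with a mean of 52.0 counts, and Cyp2g1 just outside it with a mean of 37.5 counts.

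Liver RNA was sequenced in 1 library of Rcrin conditional knockout mice and 1 library of WT mice. The WT mice were floxed for Rcrin, meaning that loxP sites flank a piece of a gene that stays intact until Cre acts, and both libraries are labelled with a time of 8 weeks. The labels do not say which Cre or promoter drove the deletion, which cells lost Rcrin, whether the WT mice also carried Cre, or how many mice a library held. Library totals were 63587567 counts in the knockout and 65121596 in WT. With 1 library per genotype no comparison has a replicate check, and no test of the genotype was possible. Ratios are knockout over WT after TMM scaling, a correction for libraries whose totals are moved by a few strong genes. Each has an exact (Clopper-Pearson) 95% interval for the error of counting alone. No molecular identifiers are described, so PCR copies are counted as separate molecules and these intervals are too narrow. Genes at a log2 ratio of at least 1, or 2-fold, in either direction are called higher or lower, and that word says nothing of the spread between mice. In bulk RNA, fewer cells of a type and less RNA per cell cannot be told apart.

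Cytochromes P450 are heme enzymes of the endoplasmic reticulum that insert an oxygen atom into their substrates, with electrons from NADPH passed on by P450 oxidoreductase. Family 2 is large in rodents and sits mostly in tandem arrays of close paralogs. Its liver members oxidise drugs, solvents, steroids, bile acids, retinoids and polyunsaturated fatty acids. Several are known to be induced by foreign compounds through the nuclear receptors CAR and PXR, to differ between male and female mice, or to be limited to one zone of the liver lobule.

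Of the Cyp2 genes compared, 24 had more reads in the knockout library than in WT after scaling, and the 2 highest ratios were those of Cyp2c37 and Cyp2a5. Of the 34 members compared, 11 were at least 2-fold higher, which is 32.4% of them, against 8.45% of all 12064 genes compared. Cyp2c38 was the 1 member at least 2-fold lower, 2.94% of them, against 8.61% of all genes compared. The other 22 members lay between these limits. At a limit of 4-fold, 5 members were higher (14.7%) and 0 lower, against 2.51% and 2.8% of all genes compared. At 1.5-fold, 17 were higher (50%) and 2 lower, against 19% and 18.8%. The whole counting interval lay beyond 2-fold for 9 members higher and 1 lower, against 5.93% and 6.18% of all genes. All compared members had at least 5 exons, and among genes with at least 3 exons the 2-fold shares were 7.66% higher and 7.7% lower. Cyp2a4 was just inside the upper limit at a log2 ratio of 1.03 and Cyp2c54 just outside it at 0.91, while Cyp2c38 at -1.55 and Cyp2d40 at -0.74 stood on either side of the lower one. Those 24 members with a ratio above 0 were 70.6%, against 49.2% of all genes compared. The median log2 ratio of the members was 0.57, or 1.49-fold, against -0.01 over all genes compared. Counting intervals lay wholly above 0 for 23 members and wholly below 0 for 7, and held 0 for Cyp2c39, Cyp2d11, Cyp2j9 and Cyp2s1. Cyp2b10 and Cyp2d12 passed the level limit through their knockout counts alone, and Cyp2c39 was below 50 counts in the knockout and Cyp2s1 too, so counts over the members that passed describe those members and not the whole family.

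**Figure D1:**
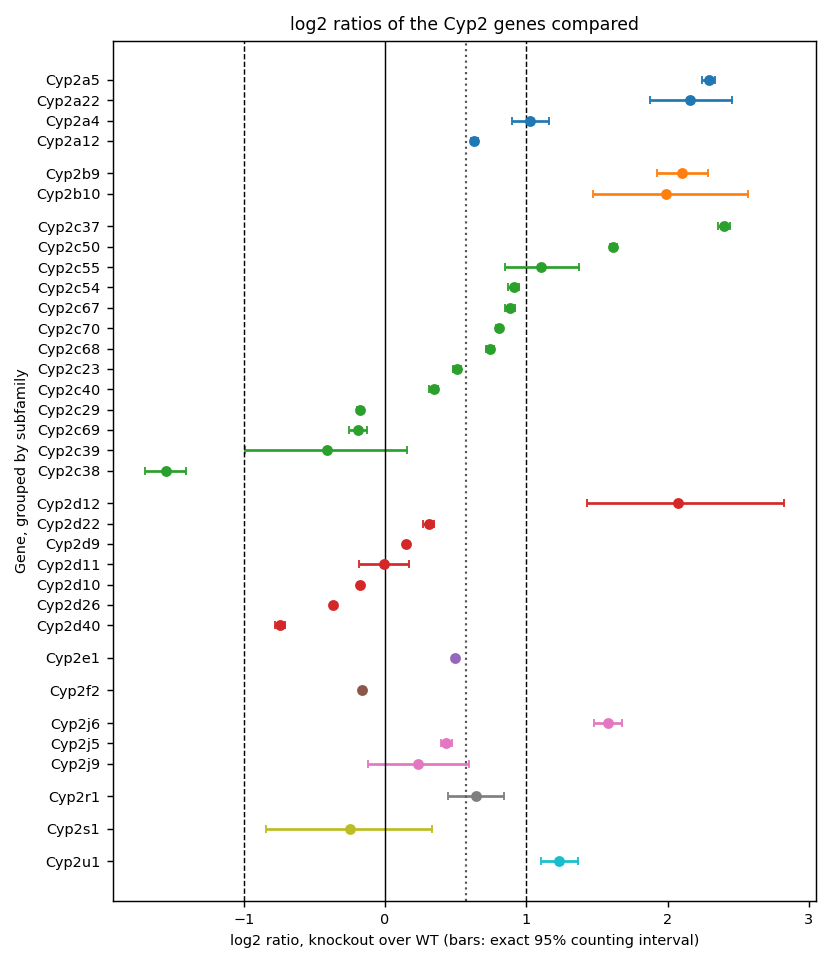
Log2 ratio of knockout over WT for the 34 Cyp2 members compared, 1 point per gene with its exact 95% interval for counting error, coloured by subfamily. Dashed lines mark 2-fold and the dotted line the member median of 0.57; Cyp2c37 stands highest at 2.40 and Cyp2c38 lowest at -1.55.

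Summed over all 48 members, the family took 1143375 counts in the knockout library and 929386 in WT, or 1.80% and 1.43% of all counts. The log2 ratio of the sum was 0.38, with an interval of 0.38 to 0.39, and it was 0.30 without Cyp2e1. The sum does not depend on how reads were split among its members. Reads dropped for mapping to several genes, or counted to a pseudogene, would be missing from it. Cyp2e1 held 43.8% of the family's counts in the knockout and 40.5% in WT, and the Cyp2c genes 24.4% and 18.8%. Cyp2a genes held 4.98% in the knockout and 3.11% in WT. The Cyp2d genes held 17.6% in the knockout and 25.4% in WT, and Cyp2f2 7.42% and 10.9%. The share of the family's counts was thus larger in the knockout for Cyp2e, Cyp2c and Cyp2a, and smaller for Cyp2d and Cyp2f.

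**Figure D2:**
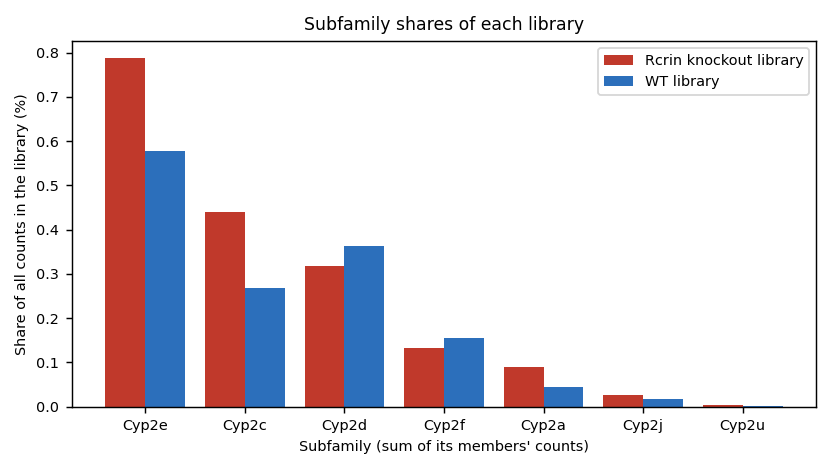
Share of all counts in each library, in percent, taken by each subfamily with a mean of at least 1000 counts, with the knockout bar beside the WT bar. Cyp2c took 0.439% in the knockout and 0.268% in WT, and Cyp2d 0.317% and 0.362%.

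The 4 Cyp2a genes, part of an array on chromosome 7, were all above WT in the knockout library and 3 of them were called higher. Cyp2a5 (ENSMUSG00000005547) encodes the mouse enzyme that hydroxylates coumarin and nicotine, and is induced by several forms of liver stress. It had 20554 counts in the knockout library, against 4454 in WT, a log2 ratio of 2.29 with an interval of 2.24 to 2.34. Cyp2a4, a steroid hydroxylase, had 1423 counts in the knockout and 740 in WT, a log2 ratio of 1.03 (interval 0.90 to 1.16) that fell below the 2-fold limit, at 0.98, when libraries were scaled by total count. Cyp2a22 had 523 counts in the knockout and 124 in WT, a log2 ratio of 2.16 with an interval of 1.88 to 2.46. Cyp2a12, which takes part in hydroxylating bile acids in mice, was far more abundant and moved less, with 34485 counts in the knockout and 23617 in WT and a log2 ratio of 0.63. The subfamily sum was 56985 counts in the knockout and 28935 in WT, a log2 ratio of 1.06.

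Reads of these genes are hard to assign, because the coding sequences of Cyp2a5 and Cyp2a4 are 98.5% identical and those of Cyp2a22 and Cyp2a12 nearly as close. The stretches printed next show what a read must cover to tell them apart. They are from exon 2 of Cyp2a5 (chr7:26835811-26835870, plus strand) and Cyp2a4 (chr7:26307666-26307725, plus strand), and from exon 3 of Cyp2a22 (chr7:26938139-26938198, minus strand) and Cyp2a12 (chr7:27030766-27030825, plus strand), all in GRCm38 coordinates. Capitals mark the bases at which the aligned pair differs, which number 3 and 5 in these 60 bases. Over the whole coding sequence 23 of 1485 aligned positions differ between Cyp2a5 and Cyp2a4, and 45 of 1479 between Cyp2a22 and Cyp2a12.
Cyp2a5: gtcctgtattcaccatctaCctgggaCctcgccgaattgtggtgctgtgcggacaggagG
Cyp2a4: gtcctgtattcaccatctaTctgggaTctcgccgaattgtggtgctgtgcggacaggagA
Cyp2a22: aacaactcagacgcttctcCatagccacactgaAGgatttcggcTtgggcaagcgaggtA
Cyp2a12: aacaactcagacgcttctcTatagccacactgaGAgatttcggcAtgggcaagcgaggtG

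Cyp2a5 shared 51.5% of its windows of 50 coding bases with another transcript, mostly of Cyp2a4, and Cyp2a12 and Cyp2a22 shared 30.2%, mostly with each other. Summed as pairs, Cyp2a4 and Cyp2a5 together had 21977 counts in the knockout and 5194 in WT, a log2 ratio of 2.17. Cyp2a12 and Cyp2a22 together had 35008 in the knockout and 23741 in WT, a log2 ratio of 0.65, which follows the far more abundant Cyp2a12 and says nothing of Cyp2a22 itself. An antisense gene, Gm42375, overlaps Cyp2a4 and had 14 counts in the knockout and 0 in WT. Cyp2a21-ps overlaps Cyp2a22 on the other strand and had 10 counts in the knockout and 9 in WT. Whether counting used strand is not given in the sources used here, so reads of such overlapping pairs cannot be told apart, but their counts are small beside those of the coding genes.

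Of the 5 Cyp2b genes only Cyp2b9 and Cyp2b10 passed the level limit, and both were higher. Cyp2b10 is the classical CAR target of phenobarbital response in mouse liver, and Cyp2b9 is known as a female-predominant gene. Cyp2b9 had 1249 counts in the knockout library, against 308 in WT, a log2 ratio of 2.10 with an interval of 1.92 to 2.29. Cyp2b10 had 140 counts in the knockout and 37 in WT, a log2 ratio of 1.99 with a wide interval of 1.47 to 2.57. Both were low genes, at 10.7 and 1.23 CPM per kilobase of transcript in the knockout and 2.48 and 0.31 in WT, where CPM is the count scaled to library size. Cyp2b13, another female-predominant gene, had 8 counts in the knockout and 0 in WT, and Cyp2b19 and Cyp2b23 had 0 in both. Of the sex-linked genes, Xist, the RNA of the inactive X chromosome of female cells, had 0 counts in both libraries, and the Y-linked Ddx3y had 1219 counts in the knockout and 122 in WT. Cebpa, listed here as a regulator of liver P450 genes, and the P450 gene Cyp8b1 were also at 0 in both. A count of 0 may therefore not mean absence here, and why genes were at 0 was not tested. The part of sex in the Cyp2b values was not tested.

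The Cyp2c genes, which in mice epoxidise and hydroxylate arachidonic acid and oxidise many drugs, held both the highest and the lowest ratio among the 34 members compared. Among the 13 compared, 3 were higher, 1 was lower and 9 lay between. Their sum was 279180 counts in the knockout library and 174408 in WT, a log2 ratio of 0.76 with an interval of 0.76 to 0.77.

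Cyp2c37 (ENSMUSG00000042248), an arachidonic acid hydroxylase, had 25530 counts in the knockout library and 5143 in WT, a log2 ratio of 2.40 with an interval of 2.35 to 2.44. Cyp2c50 had 49099 counts in the knockout and 16994 in WT, a log2 ratio of 1.62 (interval 1.59 to 1.64). Cyp2c54, an epoxygenase, had 15264 counts in the knockout and 8610 in WT, a log2 ratio of 0.91 that missed the limit. These 3 genes lie next to each other on chromosome 19 and are 95.1% to 96.1% identical in coding sequence, with 98 of 1473 aligned positions differing among them. Their sum was 89893 counts in the knockout and 30747 in WT, a log2 ratio of 1.63. A stretch of exon 6 of each is shown, because its 11 differing positions, in capitals, are what separates their reads there: Cyp2c37 at chr19:40000418-40000477 (plus strand), Cyp2c50 at chr19:40096717-40096776 (plus strand) and Cyp2c54 at chr19:40047586-40047645 (minus strand), in GRCm38.
Cyp2c37: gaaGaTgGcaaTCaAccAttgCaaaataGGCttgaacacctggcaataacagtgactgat
Cyp2c50: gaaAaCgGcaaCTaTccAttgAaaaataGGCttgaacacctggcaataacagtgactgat
Cyp2c54: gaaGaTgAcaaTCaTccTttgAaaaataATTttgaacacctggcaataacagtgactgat

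Cyp2c55, a known PXR-responsive gene of gut and liver, was a low member with 374 counts in the knockout and 184 in WT, a log2 ratio of 1.11 (interval 0.85 to 1.37). It shared no window of 50 coding bases with another transcript. With the trend of ratios on GC content removed, its log2 ratio was 0.70 and it was no longer called. Cyp2c70, which makes muricholic acids and so gives mouse bile its muricholate, was the most abundant of the Cyp2c genes, with 71582 counts in the knockout and 43469 in WT, a log2 ratio of 0.80. It too shared no window with another transcript. Cyp2c23, listed as Cyp2c44 among RefSeq synonyms and known as an epoxygenase, lies apart from the array and had 19728 counts in the knockout and 14702 in WT, a log2 ratio of 0.51.

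Cyp2c40, Cyp2c67, Cyp2c68 and Cyp2c69 are close copies of each other, and their single values are uncertain. Cyp2c67 had 18232 counts in the knockout and 10478 in WT (log2 ratio 0.88), and Cyp2c68 had 27116 and 17205 (0.74). Cyp2c40 had 16631 counts in the knockout and 13907 in WT (0.34), and Cyp2c69 had 3623 and 4389 (-0.19), although Cyp2c69 is 97.7% identical to Cyp2c67. Cyp2c40 shared 75.4% of its windows with another transcript, the highest share in the family. The 4 genes summed to 65602 counts in the knockout and 45979 in WT, a log2 ratio of 0.60.

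At the other end, Cyp2c38 (ENSMUSG00000032808) had 513 counts in the knockout library, against 1597 in WT, a log2 ratio of -1.55 with an interval of -1.70 to -1.41, or 2.93-fold lower in the knockout. Its nearest paralog Cyp2c39, which encodes a retinoic acid hydroxylase and is 94.2% identical, had 46 counts in the knockout and 65 in WT, a log2 ratio of -0.41 with an interval of -0.99 to 0.15. Together they had 559 counts in the knockout and 1662 in WT, a log2 ratio of -1.49. Cyp2c29, a phenobarbital-inducible gene next to them and among the abundant Cyp2c genes, had 31442 counts in the knockout and 37665 in WT, a log2 ratio of -0.18.

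The promoters of the highest and the lowest called members, Cyp2c37 and Cyp2c38, and of Cyp2e1, the most abundant member, are shown to set their elements side by side. They are RefSeq sequences on GRCm38.p6, from 250 bases before to 50 bases after the start, at chr19:39992174-39992473 (plus strand), chr19:39463026-39463325 (minus strand) and chr7:140763569-140763868 (plus strand). Capitals mark matches on either strand to a TATA box, to a CCAAT box (ATTGG on the other strand) and to CAAAGTNCA, a form of the site bound by the liver factor HNF4A.
Cyp2c37: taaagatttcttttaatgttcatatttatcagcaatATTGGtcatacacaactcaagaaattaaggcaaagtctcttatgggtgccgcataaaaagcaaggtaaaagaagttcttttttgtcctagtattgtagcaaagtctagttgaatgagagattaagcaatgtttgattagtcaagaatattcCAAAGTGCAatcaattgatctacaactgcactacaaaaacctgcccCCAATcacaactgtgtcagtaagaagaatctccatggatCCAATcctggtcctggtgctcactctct
Cyp2c38: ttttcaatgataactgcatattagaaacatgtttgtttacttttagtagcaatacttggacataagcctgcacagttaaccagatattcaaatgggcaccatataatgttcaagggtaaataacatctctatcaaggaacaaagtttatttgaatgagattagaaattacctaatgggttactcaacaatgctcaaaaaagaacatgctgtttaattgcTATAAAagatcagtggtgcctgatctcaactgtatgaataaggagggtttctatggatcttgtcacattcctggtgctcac
Cyp2e1: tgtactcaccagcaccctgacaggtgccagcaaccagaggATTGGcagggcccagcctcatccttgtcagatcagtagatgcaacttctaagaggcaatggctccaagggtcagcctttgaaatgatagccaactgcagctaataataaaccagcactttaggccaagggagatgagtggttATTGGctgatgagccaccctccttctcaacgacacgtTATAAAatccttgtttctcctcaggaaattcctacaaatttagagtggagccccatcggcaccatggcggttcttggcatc

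The Cyp2c37 window held CAAAGTGCA 63 bases before the start and no TATAAA, whereas the Cyp2c38 and Cyp2e1 windows held TATAAA 31 bases before the start and no match to CAAAGTNCA. RefSeq promoters were found for 40 of the 48 members, of which 29 were compared, and each motif was searched on both strands. TATAAA was in 19 of the 29 windows (65.5%), against 13.6% of all 32851 promoters. These letters were counted at any position, from -128 in Cyp2j5 to 41 in Cyp2c40, so this is no count of working TATA boxes. CAAAGTNCA was in 8 of 29 (27.6%), against 1.41% of all promoters, and the 8 were Cyp2c37, Cyp2c40, Cyp2c50, Cyp2c67, Cyp2c68, Cyp2c69, Cyp2c70 and Cyp2d26. CCAAT was in 15 of 29 (51.7%), against 37.4% of all promoters. Among the 9 members called higher that had a promoter, 4 held TATAAA, 5 held CCAAT and 2 held CAAAGTNCA. TTCNNNGAA, letters of a STAT site, was in 0 of the 29 windows and in 8.3% of all promoters, and TTATGTAA, letters of a D box, in 0 and in 0.938%. An HNF1-type site and a direct repeat with a spacer of 4 bases, each searched as a single fixed spelling, were in 0 of the 29 and in 0.00913% and 0.0122% of all promoters. Close paralogs share promoter letters, and the motifs were chosen after the sequences had been seen, so these are descriptions of the letters alone.

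The Cyp2d genes oxidise many basic drugs, and in mice Cyp2d9 is known as a male-predominant testosterone hydroxylase. Their sum was slightly lower, with 201804 counts in the knockout library and 235856 in WT, a log2 ratio of -0.14 (interval -0.15 to -0.13). Cyp2d9 had 66845 counts in the knockout and 64088 in WT (log2 ratio 0.15), and Cyp2d10 had 67641 and 81248 (-0.18). Cyp2d26 had 46006 counts in the knockout and 63038 in WT (-0.37), Cyp2d22 had 10702 and 9165 (0.31), and Cyp2d11 had 511 and 544 (-0.0049). Cyp2d40 moved most downwards without reaching the limit, with 10006 counts in the knockout and 17750 in WT, a log2 ratio of -0.74 (interval -0.78 to -0.71). Cyp2d12 was the only Cyp2d member called, with 93 counts in the knockout and 23 in WT, a log2 ratio of 2.08 and an interval of 1.43 to 2.83. Joined with its paralogs Cyp2d9, Cyp2d10, Cyp2d11 and Cyp2d34, it was part of a sum of 135090 counts in the knockout and 145903 in WT, a log2 ratio of -0.03, a sum in which its own reads are too few to be seen.

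Cyp2c and Cyp2d transcripts also differ in base composition. The Cyp2c members had a median GC content of 42.2% and the Cyp2d members 53.9%, against 50.8% over all genes compared. With the trend of ratios on GC content removed, the median log2 ratio was 0.37 for the Cyp2c genes, against 0.74 before, and 0.18 for the Cyp2d genes, against -0.0049 before. Removing the trend thus brought both medians closer together, and the part of GC content in single ratios was not tested. The 3 Cyp2a and the 2 Cyp2b genes called higher were also called after removal.

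Cyp2e1 (ENSMUSG00000025479), which oxidises ethanol and turns acetaminophen into its toxic product in pericentral hepatocytes, was the most abundant member in both libraries. It had 500832 counts in the knockout and 376426 in WT, a log2 ratio of 0.50 with an interval of 0.49 to 0.50. Per transcript length it stood at 4374 CPM per kilobase in the knockout and 3098 in WT. Cyp2f2, a periportal gene of liver that activates naphthalene, came next per length in both, at 727 CPM per kilobase in the knockout and 816 in WT. Cyp2f2 had 84804 counts in the knockout and 100927 in WT, a log2 ratio of -0.17, and its antisense partner Gm15883 had 142 and 82.

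Behind these genes the order per length differed between the libraries. Cyp2c70 was in place 3 in the knockout at 667 CPM per kilobase, and in place 6 in WT at 382. Cyp2d10, at 657 in the knockout and 744 in WT, was in places 4 and 3, and Cyp2d9, at 625 and 565, in places 5 and 4. Cyp2c50 was in place 6 in the knockout at 434 CPM per kilobase, and in place 11 in WT at 141. Cyp2c37 was in place 11 in the knockout at 224 and in place 18 in WT at 42.5, and Cyp2a5 in place 14 at 163 and in place 20 at 33.4. Cyp2d40 went the other way, to place 16 in the knockout at 138 CPM per kilobase, against place 8 in WT at 230.3. No spread over mice is known, so neighbours in this order were not compared further.

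**Figure D3:**
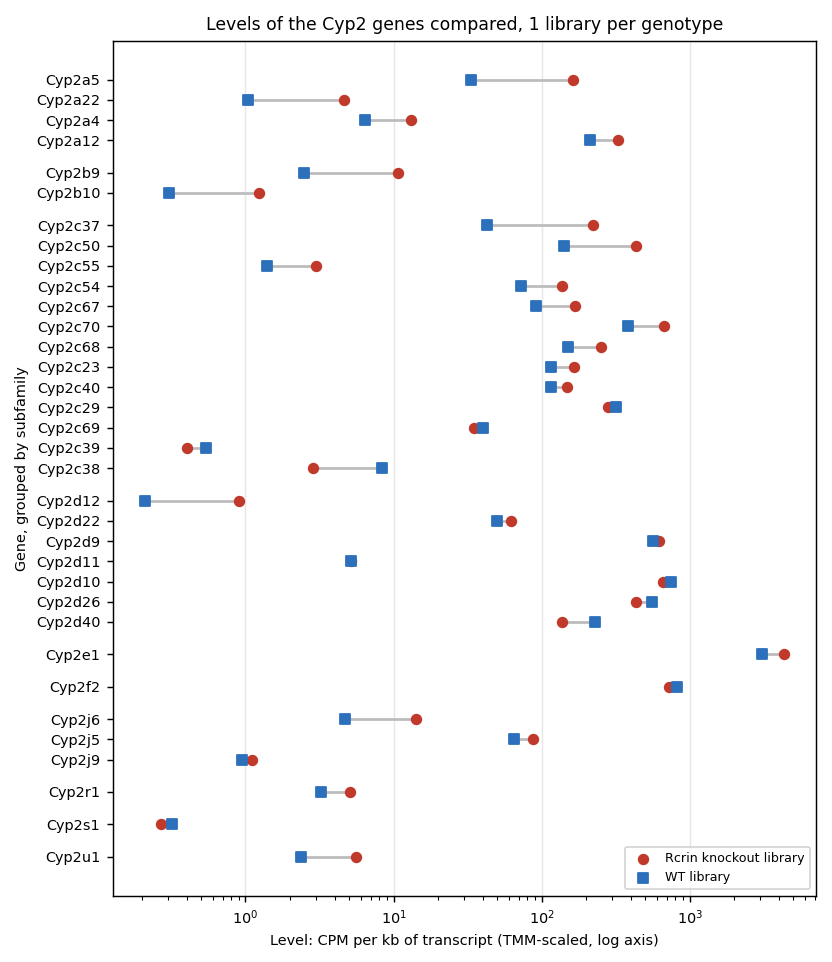
Level of each compared Cyp2 member in CPM per kilobase on a log axis, with the knockout and the WT library as separate points. Cyp2e1 leads at 4374 in the knockout and 3098 in WT, and Cyp2c37 is at 224 and 42.5.

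Among the smaller subfamilies, Cyp2j6 and Cyp2u1 were called higher. Cyp2j6 had 3187 counts in the knockout library and 1131 in WT, a log2 ratio of 1.58 (interval 1.48 to 1.68), and it shared 1.03% of its windows. Cyp2j5, an epoxygenase of mouse kidney and liver, had 12874 counts in the knockout and 10116 in WT (log2 ratio 0.43), and Cyp2j9 had 141 and 127 (0.24, interval -0.12 to 0.59). The sum of the 8 Cyp2j genes was 16206 counts in the knockout and 11374 in WT, a log2 ratio of 0.60.

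Cyp2u1, a hydroxylase of long-chain fatty acids, had 1529 counts in the knockout library and 691 in WT, a log2 ratio of 1.23 (interval 1.10 to 1.36). An antisense gene, 4930534D22Rik, overlaps it and had 8 counts in the knockout and 0 in WT. Cyp2r1, which hydroxylates vitamin D in its first activation step, had 517 counts in the knockout and 351 in WT, a log2 ratio of 0.64. Cyp2s1 had 46 counts in the knockout and 58 in WT, a log2 ratio of -0.25 with an interval of -0.84 to 0.33, too few reads to place it on either side of 0.

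The 14 members not compared were 10 with 0 counts in both libraries and 4 with few. Cyp2g1, an enzyme of the nasal lining, had 71 counts in the knockout and 4 in WT, a log2 ratio of 4.07 with an interval of 2.82 to 6.15. Cyp2t4 had 4 counts in the knockout and 11 in WT and lies opposite Egln2, a gene with 6401 and 6853 counts. Cyp2j8 had 4 in the knockout and 0 in WT, and Cyp2b13 was given above. The members at 0 in both were Cyp2b19, Cyp2b23, Cyp2c65, Cyp2c66, Cyp2d34, Cyp2j7, Cyp2j11, Cyp2j12, Cyp2j13 and Cyp2w1. For them too, a count of 0 may not mean absence.

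Members were called higher at every range of levels. Of the 18 members with a mean of at least 10000 counts, 3 were called higher (Cyp2c50, Cyp2c37 and Cyp2a5) and 0 lower, with a median log2 ratio of 0.50, and of all genes at that level 7.42% were higher and 6.58% lower. The 6 members of 1000 to 10000 counts held 3 higher and 1 lower, with a median of 0.67, against 5.85% higher and 6.13% lower of all such genes. The 10 members of under 1000 counts held 5 higher and 0 lower, with a median of 0.87, against 10.2% higher and 10.4% lower of all compared genes at that level. The share of members called higher was thus smallest at the highest level and the same at both lower levels. Counting error is widest at the lowest level.

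By position, 5 of the 11 members called higher lay in the array of chromosome 7, from position 25802475 to 27158668 of GRCm38, where 8 of 13 Cyp2 genes were compared. These were Cyp2b10, Cyp2b9, Cyp2a4, Cyp2a5 and Cyp2a22, which are consecutive among the compared genes only, since Cyp2b13, Cyp2b23, Cyp2b19 and Cyp2g1 lie between them, with Cyp2s1 on one side and Cyp2a12 and Cyp2f2 on the other. The array of chromosome 19, from position 39007019 to 40187333, had 12 of its 14 genes compared, with 3 higher and 1 lower. On chromosome 15, from position 82370527 to 82794294, 7 of 8 genes were compared and 1 was higher. The array of chromosome 4, from position 96027534 to 96664154, had 3 of 8 genes compared and 1 higher. Neighbours are also paralogs, so position and shared reads cannot be told apart for most of them.

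**Figure D4:**
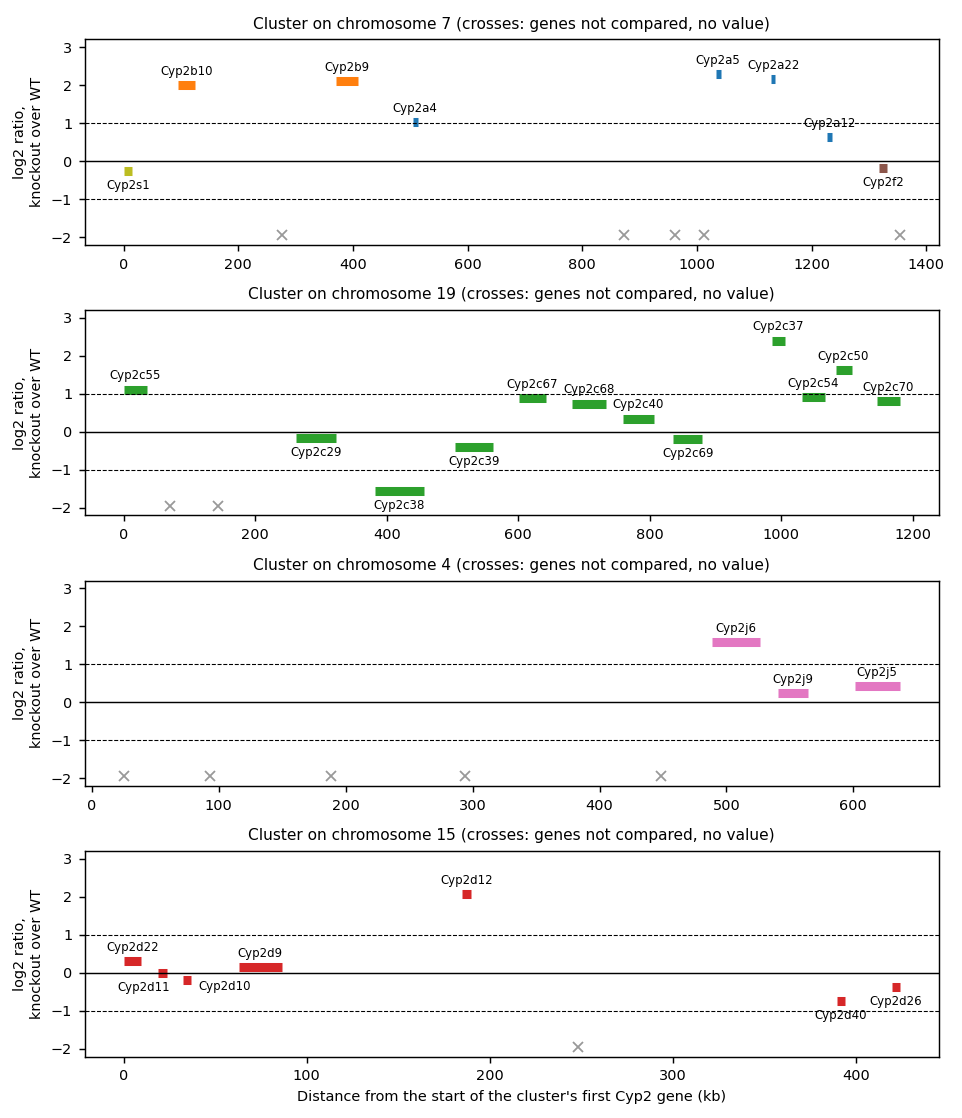
Log2 ratio of knockout over WT of Cyp2 genes along the 4 arrays, as bars over the length of each gene, by distance in kilobases from the first Cyp2 gene. Grey crosses at the lower edge mark genes that were not compared and carry no value; on chromosome 7 the 5 compared genes from Cyp2b10 to Cyp2a22, with uncompared genes among them, lie above the 2-fold line.

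Over all pairs within a subfamily, 18 of 109 were at least 90% identical in coding sequence. Their median difference in log2 ratio was 0.86, against 0.92 in the other 91 pairs, and 8 of the 18 were over 2-fold apart, as Cyp2a5 and Cyp2a4 were. Merging all members at or above that identity left 23 groups, of which 7 were higher (30.4%) and 1, Cyp2c38 with Cyp2c39, was lower. Among the 10 members that shared under 10% of their windows with any other transcript, 2 were higher, Cyp2c55 and Cyp2j6. The median log2 ratio of these members was 0.50. Windows were matched on either strand, so overlap with an antisense gene also counted as sharing. This left out Cyp2u1, called higher, at 25.9% and most with 4930534D22Rik. Cyp2f2, between the limits, was left out at 12.8% and most with Gm15883.

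The genes that serve P450 enzymes were also compared. Counts called in these lists stand beside 8.45% higher and 8.61% lower among all genes compared. Among 13 redox partners and microsomal helpers, 0 were higher and 2 lower, with a median log2 ratio of 0.18. Por, the oxidoreductase that passes electrons to all Cyp2 enzymes, had 8871 counts in the knockout library and 23737 in WT, a log2 ratio of -1.33. Hmox1, which breaks down heme, had 1623 counts in the knockout and 4156 in WT (-1.27), and Blvra, which acts on the product of that step, was highest at 0.81. Cyb5a, cytochrome b5, which passes electrons to some P450 enzymes, had 100739 counts in the knockout and 62659 in WT (0.77). Of 12 heme synthesis genes 0 were higher and 1 was lower, with a median of 0.02. Cpox, a late enzyme of that pathway, had 1321 counts in the knockout and 4778 in WT (-1.77), and Alas1, its rate-limiting enzyme in liver, had 30986 and 42279 (-0.36), while Ppox was highest at 0.55. P450 genes of the other families, 32 compared, held 2 higher and 3 lower with a median of -0.24, from Cyp26b1 at -4.31 (24 counts in the knockout and 513 in WT) to Cyp26a1 at 1.89 (482 and 138). Both are retinoic acid hydroxylases. Whether these lists differ from the Cyp2 family could not be tested with 1 library per genotype.

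Receptors and cofactors that regulate P450 genes were mixed, with 6 higher and 3 lower of 27 compared and a median of 0.16. Of all genes compared, 8.45% were higher and 8.61% lower. Hnf4a, a factor required for much of hepatocyte gene expression, had 16348 counts in the knockout library and 7694 in WT, a log2 ratio of 1.17. Nr5a2, the receptor LRH-1, was highest at 2.07, and Rxra, the partner of CAR and PXR in DNA binding, was lowest at -1.14, with 5931 counts in the knockout and 13896 in WT. Nr1i3, which encodes CAR, had 4529 counts in the knockout and 4314 in WT (0.16), and Nr1i2, which encodes PXR, had 3120 and 2233 (0.57). Known CAR and PXR targets outside the family, 26 compared, held 9 higher and 3 lower with a median of 0.31, from Ugt1a9 at -1.98, whose reads may be shared with the other Ugt1a genes, to Gsta1 at 3.67 (330 counts in the knockout and 27 in WT), which has close paralogs.

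**Figure D5:**
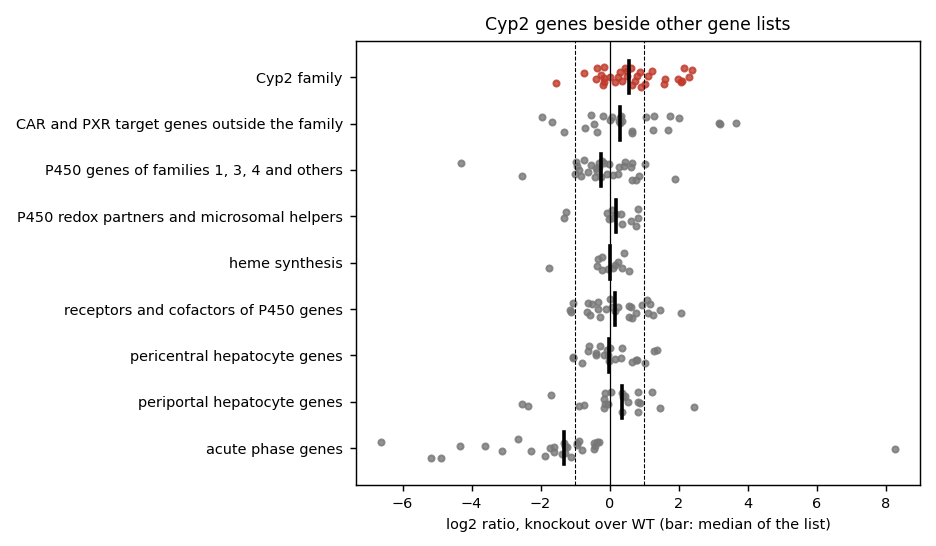
Log2 ratio of knockout over WT for the Cyp2 members and for lists of related genes, with a bar at each median and a dot per gene compared. The Cyp2 median is 0.57, that of P450 genes of other families -0.24, and that of acute phase genes -1.32.

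Genes of both zones of the liver lobule were mixed, beside 8.45% higher and 8.61% lower among all genes compared. Of 22 pericentral genes 3 were higher and 2 lower, with a median of -0.02, from Tbx3 at -1.06 to Rgn at 1.38. Of 23 periportal genes 3 were higher and 3 lower, with a median of 0.34, from Cyp17a1 at -2.55 to Apof at 2.46. With the GC trend removed the pericentral median was 0.03 and the periportal median 0.18, and the log2 ratio of the periportal Cyp2f2 was 0.0026, against -0.17 before.

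Markers of other cells and states differed between the libraries too. For these and the cell types below, the shares over all genes compared were 8.45% higher and 8.61% lower. Hepatocyte markers were present at high level in both libraries, with none of this list at 0. They summed to 196026 CPM in the knockout and 168851 in WT, with 1 higher and 0 lower of 19. The median was 0.15, from Trf at -0.93 to Hnf4a. Cebpa and Cyp8b1, which stood in other lists, had 0 counts in both libraries. Acute phase genes, 28 compared, held 1 higher and 18 lower with a median of -1.32, from Saa2 at -6.62 (4458 counts in the knockout and 465943 in WT) to Crp at 8.26 (43791 and 151). Their summed level was 41153 CPM in the knockout and 92388 in WT. Inflammation is known to lower many hepatic P450 transcripts in rodents, and the part of this difference in the Cyp2 ratios was not tested.

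Among markers of other cell types, erythroid genes had a summed level of 786 CPM in the knockout and 3089 in WT (0 higher and 5 lower of 7, median -2.34, from Hba-a2 at -3.30 to Alas2 at 0.55). Neutrophil genes summed to 27.1 CPM in the knockout and 68.6 in WT (0 higher and 5 lower of 9, median -1.09, from Mpo at -3.08 to Csf3r at -0.61). Kupffer cell and macrophage genes summed to 1427 CPM in the knockout and 2005 in WT (1 higher and 3 lower of 15, median -0.60, from Trem2 at -1.61 to Vsig4 at 1.02). Sinusoidal endothelial genes summed to 529 CPM in the knockout and 546 in WT (1 higher and 1 lower of 13, median -0.23, from Oit3 at -1.13 to Fcgr2b at 1.25). Cholangiocyte genes summed to 126 CPM in the knockout and 177 in WT (0 higher and 1 lower of 8, median -0.33, from Spp1 at -1.02 to Krt7 at 0.68), and stellate cell genes to 323 and 357 (0 higher and 1 lower of 12, median -0.20, from Col1a1 at -1.67 to Colec11 at 0.67). Of 15 lung, gut and kidney markers 10 were at 0 in the knockout and 7 in WT, and the 3 compared had a median of 0.58, from Fabp2 at 0.55 to Nphs1 at 0.91. Among the markers of liver and blood cells, Epb42 (erythroid) was at 0 in both libraries and Cftr (cholangiocyte) at 0 in WT. Scgb1a1, Sftpc, Umod and Aqp2, defining markers of lung and kidney, were at 0 in both. As with Xist, a count of 0 may not mean absence. The part of other cells in the Cyp2 ratios was not tested.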

How the data were processed

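Liver RNA was purified with Trizol, and a SMARTER kit for mRNA gave the libraries, as the labels' protocols state. The deposited files give raw counts for each Ensembl gene, and the submitters' processing notes name the build GRCm38, also called mm10. The aligner, counter, annotation release, use of strand and handling of multi-mapped reads are not given in the sources used here, and the last can move reads between paralogs. Library totals were 63587567 counts in the knockout and 65121596 in WT, and the precision this depth gives is stated as intervals for counting error alone.

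Groups were taken from the genotype label. Counts were scaled with TMM factors of edgeR 4.0.16 in R 4.3.3, 0.982 for the knockout and 1.02 for WT, and 0.5 reads, scaled to library size, were added before the log2 ratio. There is 1 library per genotype, so nothing was tested and ratios carry neither a standard error nor a p-value. A GC trend was fitted with lowess in statsmodels 0.14.6, and coding sequences were aligned with Biopython 1.88 under Python 3.11.15. Level per length used the transcript with the longest coding sequence. The calculations were tested on simulated counts. No gene in the reference tables was named Rcrin, so its level was not analysed here. Of 55421 genes, 55154 had an entry in GENCODE M21.

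Every member of at least 50 mean counts was named, and members below that if they had at least 10. Where a count of few members is given, all are named, and some were so chosen after their values were seen. Outside the family the highest and the lowest gene of each list were named, plus Por, Cyb5a, Alas1, Nr1i3, Nr1i2, Hnf4a and Stat5b. Hmox1, Ddx3y, Cebpa and Cyp8b1 were added after their values were seen. The result of 1 gene that this rule takes is not reported here. Members and lists were chosen with earlier results of these data known. Protein sequences were not used here, and coding stretches were shown in their place. Alternatives were scaling by total count or by the size factors of DESeq2 1.42.0, other level limits and fold limits, another number of added reads, removal of the GC trend and sums over subfamilies. Merging by identity and the limit on shared windows were added after seeing the data.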

Additional observations from a re-analysis of the deposited data

Results flagged for a closer look

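Cyp2 pseudogenes, which lie among the genes of the family and were not part of its comparisons, held 723 counts in the knockout library and 800 in WT over 21 pseudogenes, 6 of them with counts. The counting interval of the log2 ratio lay above 0 for 2 of these pseudogenes and below 0 for 1. Cyp2c53-ps, which overlaps Cyp2c29 on the same strand, had 18 counts in the knockout and 6 in WT, a log2 ratio of 1.59 with an interval of 0.28 to 3.29. Cyp2d38-ps had 40 counts in the knockout and 24 in WT, a log2 ratio of 0.81 with an interval of 0.06 to 1.62. Cyp2d41-ps went the other way, with 121 counts in the knockout and 218 in WT, a log2 ratio of -0.76 with an interval of -1.10 to -0.44. Whether these reads come from the pseudogenes or from their coding relatives was not tested.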

How the results depend on the processing

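The count of 11 members higher was 7 of 26 with a mean of at least 500 counts (26.9%, against 6.26% of all genes at that level), 17 at a limit of 1.5-fold, 5 at 4-fold, 3 among subfamily sums, 7 of 23 after merging members at 90% identity and 2 of 10 among members with few shared windows. The count of 1 member lower was 2 with no level limit, 2 at 1.5-fold, 0 at 4-fold, 0 among subfamily sums and 0 among members with few shared windows. A merged or summed ratio follows its most abundant gene. Fewer genes enter under the stricter level, sum, merging and window settings. Removing the GC trend gave a median of 0.38 in place of 0.57, and the mean was 0.67. The family sum of 0.38 was 0.377 with DESeq2 size factors, 0.33 with total count and 0.30 without Cyp2e1. Single members gave 170 values under alternatives, 4 of them of the other sign, all with the GC trend removed: Cyp2j9 at -0.08, Cyp2c40 at -0.04, Cyp2f2 at 0.0026 and Cyp2d11 at 0.18. Of the subfamily sums, 0 of 50 values changed sign, but removal of the GC trend was not run on them. The Cyp2f sum is Cyp2f2 alone, whose ratio did change sign under that removal. Among lists, 8 of 133 medians changed sign, in 4 lists whose medians lay near 0. Scaling moved the median of all genes by at most 0.05, downwards with total count. No paired analysis was possible because each genotype has 1 library and the labels give no replicate numbers. Leaving out a library was likewise not possible. Depth limits Cyp2c39, Cyp2d12, Cyp2b10, Cyp2j9 and Cyp2s1 most.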

Other observations

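Sex-biased liver genes outside the family were mixed. For these and the growth hormone genes below, the shares over all genes compared were 8.45% higher and 8.61% lower. Of 17 male-biased genes compared, 6 stood higher in the knockout library and 2 lower, with a median log2 ratio of 0.03, from C6 at -2.01 to Hsd3b5 at 1.92 (6967 counts in the knockout and 1949 in WT). Of 11 female-biased genes, 3 were higher and 2 lower with a median of 0.32, and Cyp17a1 was lowest at -2.55 (130 counts in the knockout and 813 in WT). Among the members described above as sex-predominant, the female-predominant Cyp2b9 was higher at 2.10 and the male-predominant Cyp2d9 was at 0.15. The female-predominant Cyp2b13 had too few counts to be compared. Other members were not sorted by sex bias, so these values do not describe the family.

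Growth hormone signal genes, 11 compared, held 2 higher and 2 lower with a median of -0.11. Cish, a feedback inhibitor induced by growth hormone, had 995 counts in the knockout library and 6390 in WT, a log2 ratio of -2.60. Igf1, a growth hormone target of the hepatocyte, had 21525 counts in the knockout and 9708 in WT, a log2 ratio of 1.23, and Stat5b, which carries the signal to DNA, was at -0.12.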
